A study of Mus musculus with 31 samples.

Results

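The 32 genes described here encode enzymes, carriers and regulators of glycolysis, of the pentose phosphate pathway and of pyruvate use. They were chosen by name, and all 32 were found among the 16301 genes of the bulk RNA table and the 27998 genes of the single-cell RNA matrix. All 32 also passed the filter on low values in the bulk table, a normalised count of at least 10 in at least 2 of 12 libraries, which 15811 genes passed. Ependymal cells, the ciliated cells that line the central canal, were taken from the spinal cord of C57BL/6 mice. Foxj1-Olig2-tdT cells (Olig2 cells below) were compared with Foxj1-tdT cells (control cells below). Each genotype was measured uninjured and at 1 and 5 dpi, which is taken to mean days past injury. The 6 groups hold 2 libraries each, made by Smart-seq2 from 1000 sorted cells. Both genotypes share the names Foxj1, a transcription factor of ciliated cells, and tdT, a red fluorescent protein, while Olig2 is a lineage factor of oligodendrocytes. The labels give neither the construct that drives Olig2 nor the age of the mice. They do not say either whether the libraries of a group are separate animals, so the p-values below reflect library spread, which may be technical.

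Glycolysis takes glucose, carried into the cell by Slc2a1, through hexokinase, phosphofructokinase, aldolase and the lower enzymes to pyruvate. Lactate dehydrogenase turns pyruvate into lactate, and its A subunit (Ldha) and B subunit (Ldhb) form tetramers that differ in how readily they make or use lactate. Pyruvate dehydrogenase kinases (Pdk1 to Pdk4) hold back the entry of pyruvate into the citric acid cycle. The pentose phosphate pathway diverts glucose 6-phosphate to NADPH and ribose. In nervous tissue, astrocytes are known for high glycolysis and lactate export. Hypoxia-inducible factor, which binds short elements with the core letters ACGTG or GCGTG, is a known activator of many of these genes.

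Some libraries stand apart. The uninjured control pair was nearly identical, with a correlation of 0.989 over genes on the log2 scale, against 0.864 to 0.928 in the other groups. Calls of the 32 genes that end when this pair counts as 1 library are named as such. Control library 1 at 1 dpi was high in some genes of other cell types. The fibroblast gene Dcn had 13599.8 and 0.5 normalised counts in the control pair at 1 dpi, and the neuronal gene Snap25 1574 and 36.5. Other fibroblast markers did not follow Dcn, with 5.6 and 10.8 for Col1a1 and 242.5 and 203 for Col1a2. Olig2 itself had 1690.3 to 3961 normalised counts in the 6 Olig2 libraries, against 2.2 to 195 in the 6 control libraries. All 7 ependymal markers were measured. Their share of the summed values was 0.921 and 0.86% in the uninjured, 0.498 and 0.525% in the 1 dpi and 0.158 and 0.142% in the 5 dpi Olig2 pair. In control cells it was 0.762 and 0.768% in the uninjured, 0.659 and 0.708% in the 1 dpi and 0.558 and 0.4% in the 5 dpi pair. Tm4sf1 moved the other way from the sum of the other 6 in control cells, with 18099 and 17057.5 normalised counts uninjured, 59304 and 76775 at 1 dpi and 48902 and 22409 at 5 dpi. Without it the share was 0.785 and 0.741% in the uninjured, 0.365 and 0.305% in the 1 dpi and 0.0502 and 0.0375% in the 5 dpi Olig2 pair, and 0.627 and 0.638% in the uninjured, 0.204 and 0.124% in the 1 dpi and 0.182 and 0.222% in the 5 dpi control pair. The 5 cycling markers summed to 0.0727 and 0.161% in Olig2 cells at 5 dpi, against 0.0296 and 0.0166% in control cells at 5 dpi. The fibroblast markers, of which 4 of 5 were in the table, summed to 0.106 and 0.00163% in the control pair at 1 dpi, and to 0.0667 and 0.0626% in Olig2 cells at 5 dpi and 0.0491 and 0.035% in control cells at 5 dpi. The astrocyte markers, of which 5 of 6 were in the table, summed to 0.1 and 0.0751% in Olig2 cells at 5 dpi, against 0.044 and 0.0926% in control cells at 5 dpi. They did not move together. Aqp4 had 8550 and 6235 normalised counts in these Olig2 cells against 1949 and 4197 in control cells, and Agt 408 and 251 against 0 and 20.3. Aldh1l1 went the other way, with 11 and 85.7 against 342 and 1090, as did Slc1a2, with 149 and 92.8 against 356 and 439. Slc1a3 overlapped, with 3779 and 3262.5 against 3067 and 5920. The oligodendrocyte markers, of which 6 of 7 were in the table, summed to 0.0308 and 0.0168% in the uninjured, 0.0184 and 0.0417% in the 1 dpi and 0.0102 and 0.00496% in the 5 dpi Olig2 pair, and to 0.0864 and 0.0899% in the uninjured, 0.152 and 0.00233% in the 1 dpi and 0.00568 and 0.011% in the 5 dpi control pair. All 6 oligodendrocyte progenitor markers were in the table, and summed to 0.0157 and 0.0067% in Olig2 and 0.0014 and 0.0119% in control cells at 5 dpi. Of them Sox10 had 592 and 765 normalised counts in Olig2 cells at 5 dpi and at most 6.3 in the other 10 libraries. At 5 dpi Cspg4 had 270 and 64.8 in Olig2 and 17.6 and 33.8 in control cells. C1ql1 went the other way, with 9 and 2.2 against 100.3 and 300.4. Olig1 had 537 and 52.5 against 64.6 and 1158.7. Pdgfra (437 and 1.1) and Gpr17 (180 and 0) were high in 1 Olig2 library. Of the other lists, the table holds 2 of 6 microglia and 3 of 5 infiltrating myeloid markers and none of the 4 of red blood cells. The part of these cell mixtures in the results was not tested. In bulk RNA fewer cells of a type and less RNA per cell cannot be told apart.

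The 250 bases before the start of 4 genes on which the results turn are shown, taken from RefSeq (GRCm38.p6). Slc2a1 and Ldhb fell, and Ldha rose, in every comparison with uninjured cells, and Pfkp had the widest changes. The windows are chr4:119108495-119108744 for Slc2a1 (plus strand), chr13:6648772-6649021 for Pfkp (minus strand), chr7:46845554-46845803 for Ldha (plus strand) and chr6:142507958-142508207 for Ldhb (minus strand). Capitals mark ACGTG or GCGTG, or their reverse complements CACGT and CACGC.
Slc2a1: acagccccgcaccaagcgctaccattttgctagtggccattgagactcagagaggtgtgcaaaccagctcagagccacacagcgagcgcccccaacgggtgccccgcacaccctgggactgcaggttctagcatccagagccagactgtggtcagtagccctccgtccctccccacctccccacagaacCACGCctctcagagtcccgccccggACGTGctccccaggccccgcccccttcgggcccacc
Pfkp: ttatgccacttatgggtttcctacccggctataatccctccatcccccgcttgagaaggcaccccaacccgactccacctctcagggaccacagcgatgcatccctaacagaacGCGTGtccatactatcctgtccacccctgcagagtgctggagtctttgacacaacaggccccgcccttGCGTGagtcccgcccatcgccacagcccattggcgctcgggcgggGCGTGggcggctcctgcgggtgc
Ldha: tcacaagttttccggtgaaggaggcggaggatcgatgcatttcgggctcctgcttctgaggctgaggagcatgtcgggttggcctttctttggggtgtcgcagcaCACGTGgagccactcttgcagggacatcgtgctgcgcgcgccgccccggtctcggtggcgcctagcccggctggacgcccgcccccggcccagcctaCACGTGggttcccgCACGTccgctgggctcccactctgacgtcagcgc
Ldhb: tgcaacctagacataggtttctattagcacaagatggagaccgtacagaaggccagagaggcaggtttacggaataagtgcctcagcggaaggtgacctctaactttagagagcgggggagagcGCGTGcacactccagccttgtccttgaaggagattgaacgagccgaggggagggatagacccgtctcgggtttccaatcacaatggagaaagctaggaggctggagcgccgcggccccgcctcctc
The Ldha window, the first of 2 listed for that gene, holds 5 matches, against 3 in Pfkp, 2 in Slc2a1 and 1 in Ldhb. The letters CACGTG hold ACGTG on both strands, and are also known as an E-box. All 32 genes had a promoter in the table. In the first listed window, 26 of 32 genes held a match (81.25%), beside 38.6% of the 27025 genes in the table and 53.9% of the 11532 genes of the bulk table with a listed promoter. Counting any listed window, the shares were 90.6% of the 32 genes and 58.2% of the bulk table's genes. The shares were not matched for base composition, and a match describes letters and not a bound site.

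Injury moved these genes in both directions. At 1 dpi, 8 of 32 changed in Olig2 cells, 5 higher and 3 lower, beside 8.09% of all genes tested (5.93% higher and 2.16% lower). In control cells at 1 dpi 13 changed, 10 higher and 3 lower, beside 27.4% of all genes (15.4% and 12%). At 5 dpi 17 changed in Olig2 cells, 7 higher and 10 lower, beside 31.2% (17.2% and 14%). In control cells at 5 dpi 11 changed, 5 higher and 6 lower, beside 23% (13.8% and 9.21%). The median log2 fold change of the 32 genes at 1 dpi was 0.18 in Olig2 and 0.31 in control cells, beside 0.00 and 0.00 over all genes. At 5 dpi it was -0.23 in Olig2 and -0.12 in control cells, beside 0.12 and 0.04. At 5 against 1 dpi, 2 of 32 were higher and 8 lower in Olig2 cells, beside 13.9% of all genes (5.95% and 7.93%). In control cells all 9 that changed were lower at 5 dpi, beside 5.85% (2.74% and 3.11%).

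The 32 genes together held 0.909 and 0.873% of the summed normalised counts of the uninjured, 1.12 and 1.03% of the 1 dpi and 0.696 and 0.809% of the 5 dpi Olig2 pair. In control cells the share was 0.79 and 0.8% in the uninjured, 1.07 and 1.12% in the 1 dpi and 0.732 and 0.702% in the 5 dpi pair. Their share was highest at 1 dpi in both genotypes. Each adjusted p below is from limma's moderated test on log2(value + 1), with Benjamini-Hochberg adjustment over the 15811 genes and a threshold of 0.05. A call is named kept where it passed in all 18 alternative settings, as 27 of 81 calls did. For the others, the libraries whose removal ended the call are named, with the highest adjusted p over those settings in brackets. A term for the replicate number in the fit (replicate block) also ended some calls, which is not repeated below. They were Hk1 and Pgk1 at 5 dpi in Olig2 cells, and Pfkfb4 and Tkt at 1 dpi in control cells. Pgam1 at 5 against 1 dpi in Olig2 cells and Gapdh between uninjured genotypes were lost with it too. No call changed direction in any setting.

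**Figure D1:**
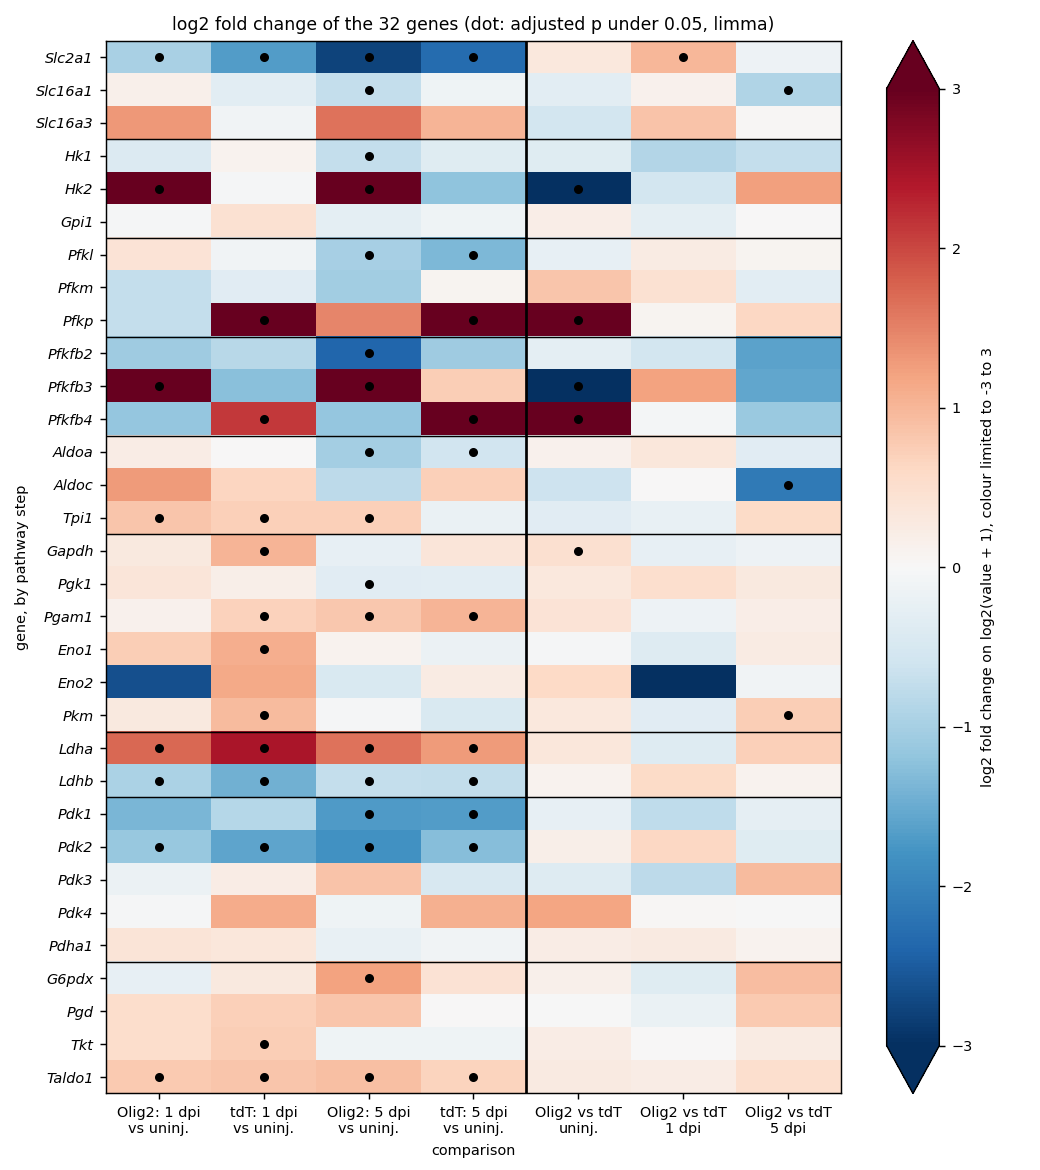
Log2 fold change of each of the 32 genes (rows, by pathway step, with lines between steps) in 7 comparisons (columns), where red is higher in the first-named group and blue lower, and dots mark adjusted p under 0.05. Slc2a1, Ldhb and Pdk2 are blue and Ldha and Taldo1 red in all 4 injury columns, each with a dot, and the 3 genotype columns hold 9 dots in all.

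Slc2a1, which encodes the glucose carrier GLUT1, fell after injury in both genotypes. In Olig2 cells Slc2a1 had 19763 and 17221 normalised counts in the uninjured pair, 9089.5 and 9659.5 in the 1 dpi pair and 2456.5 and 2981 in the 5 dpi pair. Among control libraries it had 14630.5 and 15242 normalised counts in the uninjured pair, 4065 and 5366 in the 1 dpi pair and 2876 and 3190.5 in the 5 dpi pair. Each injured pair lies wholly below its uninjured pair, and both Olig2 libraries at 1 dpi lie above both control libraries of that time. At 1 dpi the fall was kept in Olig2 cells (log2 fold change -0.98, SE 0.16, adjusted p = 0.00512) and in control cells (log2 fold change -1.68, SE 0.16, adjusted p = 9.64e-05). The fall at 5 dpi was kept in Olig2 cells (log2 fold change -2.77, SE 0.16, adjusted p = 2.84e-06) and in control cells (log2 fold change -2.30, SE 0.16, adjusted p = 4.14e-05). At 5 against 1 dpi it was lower in Olig2 cells by a kept log2 fold change of -1.79 (adjusted p = 8.39e-05), and in control cells by -0.62 (adjusted p = 0.0494). At 1 dpi Slc2a1 was higher in Olig2 than in control cells (log2 fold change 1.00, SE 0.16, adjusted p = 0.0177). The Slc2a1 call at 5 against 1 dpi in control cells was lost without either control uninjured library, control 1 dpi library 2, either control 5 dpi library, either Olig2 1 dpi library or either Olig2 5 dpi library, and with the control pair as 1 library (adjusted p up to 0.209). The Slc2a1 call between genotypes at 1 dpi was lost without control 1 dpi library 1 or either Olig2 1 dpi library (adjusted p up to 0.0713). Another glucose carrier gene, Slc2a3, went the other way at 5 dpi. It had 969 and 1255 normalised counts in Olig2 cells, against 6.7 and 175 uninjured (log2 fold change 4.91, adjusted p = 0.013). In control cells it had 652 and 582, against 276.5 and 252.5 uninjured, and was not called. Slc2a12 fell in Olig2 cells at 5 dpi, -2.63 (adjusted p = 0.00314), and in control cells at 1 dpi, -2.64 (adjusted p = 0.0041).

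Of the lactate carriers, Slc16a1 (MCT1) averaged 935 ± 8.49 normalised counts in Olig2 cells and 1785.5 ± 439 in control cells at 5 dpi (SD, n = 2 each). It was lower in the Olig2 cells (log2 fold change -0.91, SE 0.20, adjusted p = 0.0201). In Olig2 cells Slc16a1 also fell at 5 dpi, with a log2 fold change of -0.71 (adjusted p = 0.0226) against uninjured cells and -0.85 (adjusted p = 0.0194) against 1 dpi. Slc16a3 (MCT4), known as the lactate exporter of strongly glycolytic cells, ranged over 0 to 126 normalised counts in the 12 libraries and was called in no comparison. The Slc16a1 call at 5 dpi in Olig2 cells was lost without Olig2 uninjured library 1 or either Olig2 5 dpi library (adjusted p up to 0.088). The Slc16a1 call at 5 against 1 dpi in Olig2 cells was lost without Olig2 1 dpi library 1 or either Olig2 5 dpi library (adjusted p up to 0.112). The Slc16a1 call between genotypes at 5 dpi was lost without control 5 dpi library 1 or either Olig2 5 dpi library (adjusted p up to 0.106).

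**Figure D2:**
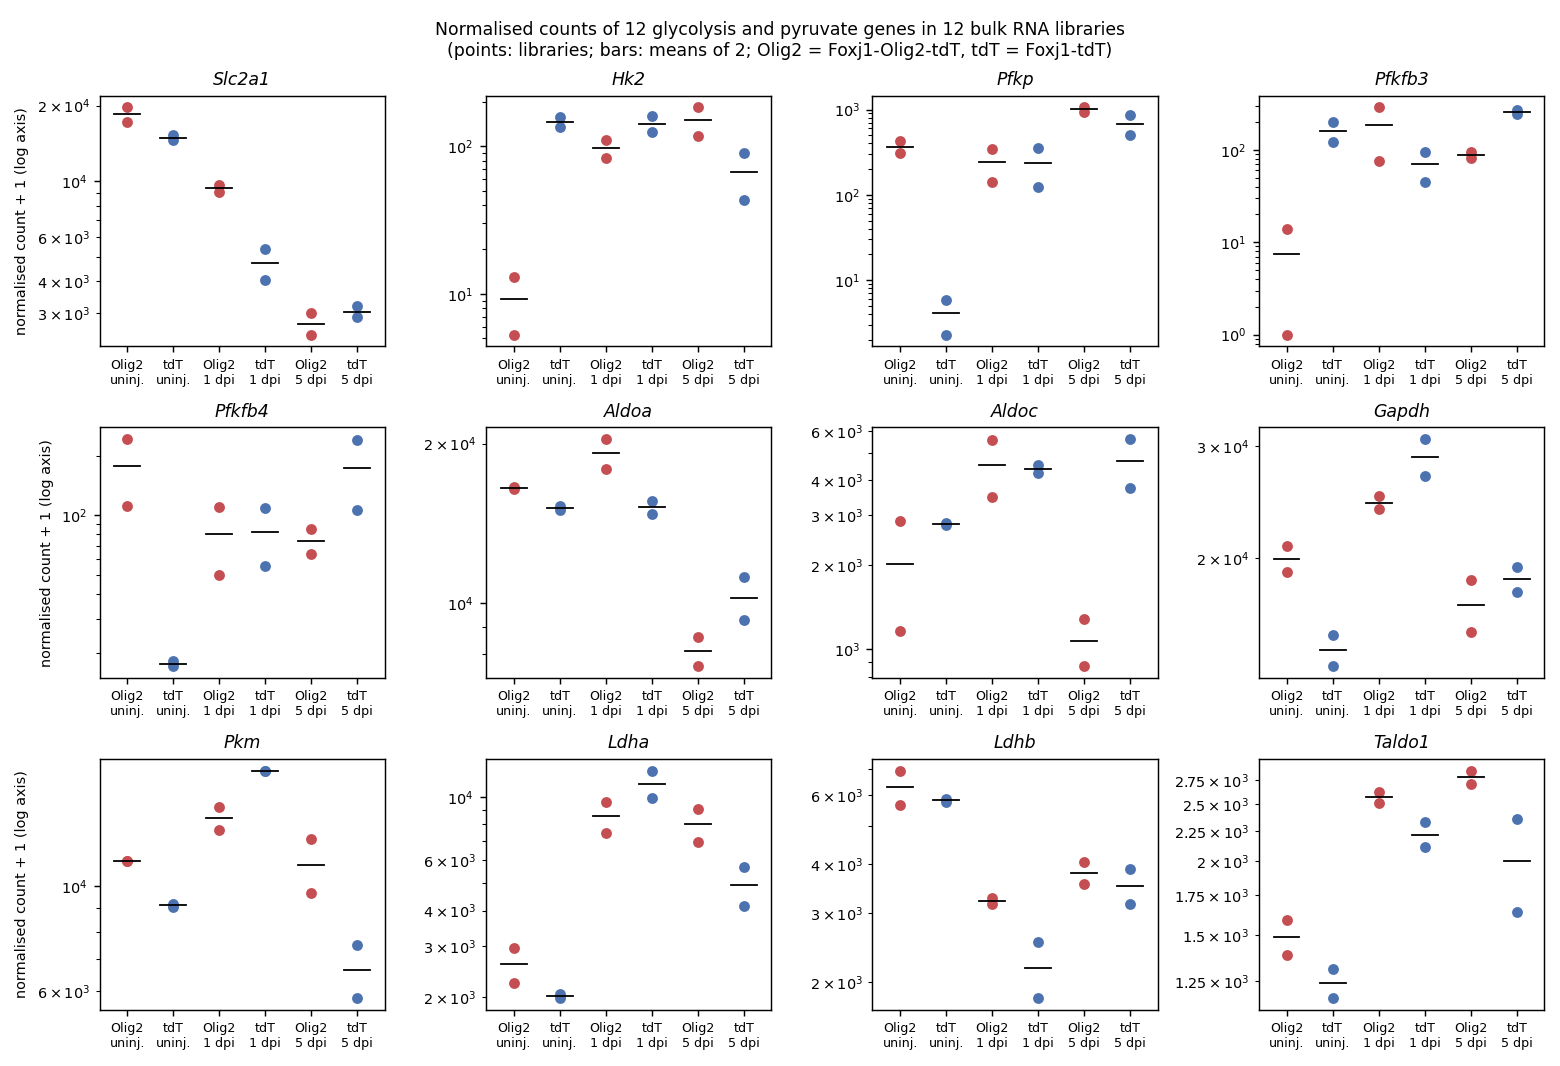
Normalised counts plus 1, on a log axis, of 12 of the genes in each bulk library, with a bar at the mean of each pair; uninjured, 1 dpi and 5 dpi run from left to right, with Olig2 cells (red) left of control cells (blue) at each time. Slc2a1 steps down and Ldha lies above its uninjured values at both later times in both genotypes, while Pfkp is near 0 in the uninjured control pair alone.

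Hexokinase 2 (Hk2), the inducible form of the enzyme that traps glucose in the cell, rose after injury in Olig2 cells. In Olig2 cells Hk2 had 4.3 and 12.1 normalised counts in the uninjured pair, 109 and 82.8 in the 1 dpi pair and 184 and 116 in the 5 dpi pair. In control cells Hk2 had 156.5 and 133 normalised counts in the uninjured pair, 124 and 158 in the 1 dpi pair and 42.0 and 89.7 in the 5 dpi pair. The uninjured Olig2 pair is the lowest of the 6 groups. The rise in Olig2 cells passed at 1 dpi (log2 fold change 3.53, SE 0.66, adjusted p = 0.0109). The rise at 5 dpi was kept (log2 fold change 4.14, SE 0.66, adjusted p = 0.0011). In control cells the log2 fold change was -0.04 (adjusted p = 0.986) at 1 dpi and -1.22 (adjusted p = 0.22) at 5 dpi, and neither passed. Uninjured Olig2 cells had less Hk2 than uninjured control cells (log2 fold change -4.12, SE 0.66, adjusted p = 0.00558). The Hk2 call at 1 dpi in Olig2 cells was lost without Olig2 1 dpi library 1 (adjusted p up to 0.0551). The Hk2 call between uninjured genotypes was lost without either control uninjured library, and with the control pair as 1 library (adjusted p up to 0.0821). The constitutive hexokinase Hk1 ranged over 367 to 931.5 normalised counts and fell in Olig2 cells at 5 dpi, with a log2 fold change of -0.71 (adjusted p = 0.0489). The Hk1 call at 5 dpi in Olig2 cells was lost without either control uninjured library, either control 1 dpi library, Olig2 uninjured library 1, either Olig2 1 dpi library or either Olig2 5 dpi library, and with the control pair as 1 library; it also ended with no filter, median-of-ratios factors and quantile normalization (adjusted p up to 0.212). Glucose 6-phosphate isomerase (Gpi1) ranged over 2308 to 3612 normalised counts and was called nowhere.

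Phosphofructokinase catalyses the committed step of glycolysis, and its platelet-type subunit Pfkp showed the widest changes of the 32 genes. In Olig2 cells Pfkp had 430.3 and 305 normalised counts in the uninjured pair, 140.0 and 346 in the 1 dpi pair and 1071 and 935 in the 5 dpi pair. The control libraries had 4.9 and 1.3 normalised counts in the uninjured pair, 123 and 352 in the 1 dpi pair and 860.4 and 496 in the 5 dpi pair. The uninjured control pair lies far below the other 10 libraries, and the 4 libraries at 5 dpi are the highest. In control cells the rise was kept at 1 dpi (log2 fold change 5.83, SE 0.67, adjusted p = 0.000283) and at 5 dpi (log2 fold change 7.47, SE 0.67, adjusted p = 0.000131). In Olig2 cells the log2 fold change was -0.72 (adjusted p = 0.556) at 1 dpi and 1.46 (adjusted p = 0.13) at 5 dpi, and neither passed. The uninjured control pair was near 0 for some other genes of the pathway too, such as the glycogen synthase gene Gys1, with 60.6 and 95.4 normalised counts in the uninjured Olig2 pair and 0 and 0.7 in the uninjured control pair.

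The liver-type subunit Pfkl was lower at 5 dpi. In Olig2 cells Pfkl had 1115 and 1399 normalised counts in the uninjured pair, 1711 and 1618 in the 1 dpi pair and 749 and 525 in the 5 dpi pair. Control cells had 1421 and 1560.3 normalised counts in the uninjured pair, 1027 and 1888 in the 1 dpi pair and 550.0 and 629 in the 5 dpi pair. All 4 libraries at 5 dpi lie below the other 8. Against uninjured cells the log2 fold change at 5 dpi was -0.99 (adjusted p = 0.0275) in Olig2 and -1.34 (adjusted p = 0.00976) in control cells. Against 1 dpi it was -1.41 (adjusted p = 0.0108) in Olig2 and -1.24 (adjusted p = 0.0379) in control cells. The muscle-type subunit Pfkm ranged over 323 to 1289.7 normalised counts and was called nowhere, with a log2 fold change of -1.05 (adjusted p = 0.0526) in Olig2 cells at 5 dpi. The Pfkl call at 5 dpi in Olig2 cells was lost without Olig2 uninjured library 2 or Olig2 5 dpi library 2 (adjusted p up to 0.184). The Pfkl call at 5 dpi in control cells was lost without either control uninjured library or control 5 dpi library 1, and with the control pair as 1 library (adjusted p up to 0.0789). The Pfkl call at 5 against 1 dpi in Olig2 cells was lost without Olig2 1 dpi library 1 or Olig2 5 dpi library 2 (adjusted p up to 0.1). The Pfkl call at 5 against 1 dpi in control cells was lost without either control uninjured library, control 1 dpi library 2, either control 5 dpi library or either Olig2 1 dpi library, and with the control pair as 1 library (adjusted p up to 0.159).

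The PFKFB enzymes set the level of fructose 2,6-bisphosphate, an activator of phosphofructokinase. In Olig2 cells Pfkfb3 had 12.9 and 0 normalised counts in the uninjured pair, 290.3 and 75.7 in the 1 dpi pair and 93.2 and 80.7 in the 5 dpi pair. Among control libraries it had 197 and 122 normalised counts in the uninjured pair, 43.9 and 93.7 in the 1 dpi pair and 270.4 and 245 in the 5 dpi pair. The uninjured Olig2 pair is again the lowest group of Pfkfb3, the form with the strongest kinase bias. It rose in Olig2 cells at 1 dpi (log2 fold change 5.33, SE 1.12, adjusted p = 0.0189) and at 5 dpi (log2 fold change 4.56, SE 1.12, adjusted p = 0.0119). Uninjured Olig2 cells were below uninjured control cells (log2 fold change -5.39, SE 1.12, adjusted p = 0.0191). In control cells Pfkfb3 had a log2 fold change of -1.26 (adjusted p = 0.435) at 1 dpi and 0.73 (adjusted p = 0.689) at 5 dpi, which did not pass. The Pfkfb3 call at 1 dpi in Olig2 cells was lost without Olig2 1 dpi library 1 (adjusted p up to 0.106). The Pfkfb3 call at 5 dpi in Olig2 cells was lost without either Olig2 5 dpi library (adjusted p up to 0.0623). The Pfkfb3 call between uninjured genotypes was lost without either control uninjured library, and with the control pair as 1 library (adjusted p up to 0.166).

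Pfkfb4, a related form, had its lowest values in the uninjured control pair. In Olig2 cells Pfkfb4 had 242 and 111 normalised counts in the uninjured pair, 48.6 and 109 in the 1 dpi pair and 62.8 and 84.1 in the 5 dpi pair. In control cells Pfkfb4 had 17.3 and 16.2 normalised counts in the uninjured pair, 54.1 and 107 in the 1 dpi pair and 238.5 and 105 in the 5 dpi pair. It rose in control cells, with a log2 fold change of 2.12 (adjusted p = 0.0495) at 1 dpi and 3.17 (adjusted p = 0.0107) at 5 dpi. Uninjured, it was higher in Olig2 than in control cells, 3.22 (adjusted p = 0.024). The Pfkfb4 call at 1 dpi in control cells was lost without either control uninjured library, either control 1 dpi library, control 5 dpi library 1 or either Olig2 5 dpi library, and with the control pair as 1 library; it also ended with a pseudocount of 8 and quantile normalization (adjusted p up to 0.217). The Pfkfb4 call at 5 dpi in control cells was lost without either control uninjured library or control 5 dpi library 1, and with the control pair as 1 library (adjusted p up to 0.074). The Pfkfb4 call between uninjured genotypes was lost without either control uninjured library or Olig2 uninjured library 1, and with the control pair as 1 library (adjusted p up to 0.176). Pfkfb2 averaged 103 ± 103 normalised counts in Olig2 cells at 5 dpi and 401 ± 132 in uninjured Olig2 cells (SD, n = 2 each), a log2 fold change of -2.38 (adjusted p = 0.026). The Pfkfb2 call at 5 dpi in Olig2 cells was lost without Olig2 uninjured library 2 or Olig2 5 dpi library 2 (adjusted p up to 0.167).

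Aldolase A (Aldoa) was lower at 5 dpi in both genotypes. In Olig2 cells Aldoa had 16545 and 16410.2 normalised counts in the uninjured pair, 20419.8 and 17939 in the 1 dpi pair and 7592 and 8639 in the 5 dpi pair. The control libraries had 15005 and 15255 normalised counts in the uninjured pair, 14710.5 and 15608 in the 1 dpi pair and 11186 and 9271 in the 5 dpi pair. All 4 libraries at 5 dpi lie below the other 8. In Olig2 cells the fall at 5 dpi was kept against uninjured (log2 fold change -1.02, SE 0.12, adjusted p = 0.000181) and against 1 dpi (log2 fold change -1.24, SE 0.12, adjusted p = 0.000156). In control cells it was -0.57 (adjusted p = 0.00883) against uninjured and -0.57 (adjusted p = 0.0259) against 1 dpi. The Aldoa call at 5 dpi in control cells was lost without either control uninjured library or control 5 dpi library 2, and with the control pair as 1 library (adjusted p up to 0.0706). The Aldoa call at 5 against 1 dpi in control cells was lost without either control uninjured library, either control 1 dpi library or control 5 dpi library 2, and with the control pair as 1 library; it also ended with quantile normalization (adjusted p up to 0.139). Aldolase C (Aldoc), the form known from astrocytes and some neurons, averaged 1073 ± 289.6 normalised counts in Olig2 cells and 4684 ± 1331 in control cells at 5 dpi (SD, n = 2 each). It was lower in the Olig2 cells (log2 fold change -2.12, SE 0.40, adjusted p = 0.00912), and lower in them than at 1 dpi, -2.07 (adjusted p = 0.00706). Against uninjured cells its log2 fold change at 5 dpi was -0.79 (adjusted p = 0.16) in Olig2 and 0.72 (adjusted p = 0.228) in control cells, and neither passed. The Aldoc call at 5 against 1 dpi in Olig2 cells was lost without Olig2 1 dpi library 1 or Olig2 5 dpi library 1 (adjusted p up to 0.0633). The Aldoc call between genotypes at 5 dpi was lost without control 5 dpi library 2 or Olig2 5 dpi library 1 (adjusted p up to 0.0893).

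Triose phosphate isomerase (Tpi1), which interconverts the products of aldolase, rose at 1 dpi. In Olig2 cells Tpi1 had 3233 and 3000.2 normalised counts in the uninjured pair, 6013.5 and 5136 in the 1 dpi pair and 4645 and 5615 in the 5 dpi pair. Control cells had 3882 and 3998.5 normalised counts in the uninjured pair, 5796 and 7264 in the 1 dpi pair and 4062.5 and 2858 in the 5 dpi pair. The injured Olig2 libraries all lie above the uninjured ones, whereas the control pair at 5 dpi spans its uninjured pair. At 1 dpi the log2 fold change was 0.84 (adjusted p = 0.0267) in Olig2 and 0.72 (adjusted p = 0.0204) in control cells. Tpi1 was also higher at 5 dpi in Olig2 cells, 0.71 (adjusted p = 0.0182), and it was lower at 5 than at 1 dpi in control cells, -0.93 (adjusted p = 0.0226). The Tpi1 call at 1 dpi in Olig2 cells was lost without either control uninjured library, either Olig2 uninjured library or either Olig2 1 dpi library, and with the control pair as 1 library (adjusted p up to 0.128). The Tpi1 call at 1 dpi in control cells was lost without either control uninjured library or control 1 dpi library 2, and with the control pair as 1 library (adjusted p up to 0.126). The Tpi1 call at 5 dpi in Olig2 cells was lost without Olig2 uninjured library 2 or Olig2 5 dpi library 2 (adjusted p up to 0.128). The Tpi1 call at 5 against 1 dpi in control cells was lost without control 1 dpi library 2 or control 5 dpi library 2 (adjusted p up to 0.131).

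Gapdh, which oxidises glyceraldehyde 3-phosphate and is often used as a reference gene, rose in control cells at 1 dpi. In Olig2 cells Gapdh had 20907.5 and 18988 normalised counts in the uninjured pair, 25042 and 23871.5 in the 1 dpi pair and 15277 and 18436 in the 5 dpi pair. Among control libraries it had 15136 and 13497 normalised counts in the uninjured pair, 26944 and 30813 in the 1 dpi pair and 17709 and 19339 in the 5 dpi pair. Both control libraries at 1 dpi lie above the other 10. That rise was kept (log2 fold change 1.01, SE 0.12, adjusted p = 0.000398). At 5 against 1 dpi the log2 fold change was -0.54 (adjusted p = 0.0175) in Olig2 and -0.64 (adjusted p = 0.0184) in control cells. The Gapdh call at 5 against 1 dpi in Olig2 cells was lost without either Olig2 1 dpi library or Olig2 5 dpi library 1 (adjusted p up to 0.125). The Gapdh call at 5 against 1 dpi in control cells was lost without control 1 dpi library 2 or either control 5 dpi library (adjusted p up to 0.0956). Pkm, the pyruvate kinase of most tissues, averaged 17626 ± 1.56 normalised counts in control cells at 1 dpi and 9109.8 ± 122 in uninjured control cells (SD, n = 2 each). Its rise in control cells at 1 dpi (log2 fold change 0.95, SE 0.15, adjusted p = 0.00167) and its fall between 1 and 5 dpi (log2 fold change -1.42, SE 0.15, adjusted p = 0.00242) were kept. Enolase 1 (Eno1) rose in control cells at 1 dpi, 1.10 (adjusted p = 0.00976), and was lower at 5 than at 1 dpi, -1.28 (adjusted p = 0.0182). The Eno1 call at 1 dpi in control cells was lost without control uninjured library 1 or control 1 dpi library 1, and with the control pair as 1 library (adjusted p up to 0.0654). The Eno1 call at 5 against 1 dpi in control cells was lost without either control 1 dpi library or control 5 dpi library 2 (adjusted p up to 0.118). In Olig2 cells at 1 dpi the log2 fold change was 0.30 (adjusted p = 0.186) for Gapdh, 0.30 (adjusted p = 0.278) for Pkm and 0.74 (adjusted p = 0.105) for Eno1. None of these 3 passed, and neither did their interaction terms.

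Phosphoglycerate mutase (Pgam1) was highest at 5 dpi. In Olig2 cells Pgam1 had 4399.8 and 5199 normalised counts in the uninjured pair, 4490.4 and 6085 in the 1 dpi pair and 7471 and 9355 in the 5 dpi pair. In control cells Pgam1 had 3702 and 3485 normalised counts in the uninjured pair, 5733 and 5900.0 in the 1 dpi pair and 8399 and 6312.5 in the 5 dpi pair. The 4 libraries at 5 dpi lie above the other 8. At 5 dpi the rise was kept in control cells (log2 fold change 1.02, SE 0.19, adjusted p = 0.00482) and was 0.81 (adjusted p = 0.0105) in Olig2 cells. It was also higher at 1 dpi in control cells, 0.70 (adjusted p = 0.024), and higher at 5 than at 1 dpi in Olig2 cells, 0.68 (adjusted p = 0.0437). The Pgam1 call at 5 dpi in Olig2 cells was lost without Olig2 uninjured library 1 or Olig2 5 dpi library 2 (adjusted p up to 0.0916). The Pgam1 call at 1 dpi in control cells was lost without either control uninjured library or either control 1 dpi library, and with the control pair as 1 library (adjusted p up to 0.133). The Pgam1 call at 5 against 1 dpi in Olig2 cells was lost without either control uninjured library, either control 1 dpi library, Olig2 1 dpi library 1 or either Olig2 5 dpi library, and with the control pair as 1 library; it also ended with quantile normalization (adjusted p up to 0.271). Phosphoglycerate kinase (Pgk1), which acts just before it, was lower at 5 than at 1 dpi in Olig2 cells by a kept call (log2 fold change -0.70, SE 0.11, adjusted p = 0.00256) and in control cells, -0.50 (adjusted p = 0.0305). Against uninjured Olig2 cells it was lower at 5 dpi, -0.34 (adjusted p = 0.0428). The Pgk1 call at 5 dpi in Olig2 cells was lost without either control uninjured library, Olig2 uninjured library 1, either Olig2 1 dpi library or either Olig2 5 dpi library, and with the control pair as 1 library (adjusted p up to 0.204). The Pgk1 call at 5 against 1 dpi in control cells was lost without either control uninjured library, either control 1 dpi library or either control 5 dpi library, and with the control pair as 1 library; it also ended with quantile normalization (adjusted p up to 0.117). The neuronal enolase Eno2 was called nowhere. It had 478 and 59.2 normalised counts in the control pair at 1 dpi, the first of which is the library high in Snap25. Gapdh, Ldha, Pgk1, Pgam1 and Eno1 have processed pseudogenes in mouse, and how reads shared with them were counted is not given in the sources used here.

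The lactate dehydrogenase subunits moved in opposite directions, in both genotypes and at both times. In Olig2 cells Ldha had 2950.5 and 2238 normalised counts in the uninjured pair, 9605 and 7489 in the 1 dpi pair and 6954 and 9050.1 in the 5 dpi pair. The control libraries had 2053 and 1976.5 normalised counts in the uninjured pair, 9881 and 12330.1 in the 1 dpi pair and 5676 and 4154 in the 5 dpi pair. Every injured library lies above the 4 uninjured ones. The rise was kept at 1 dpi in Olig2 cells (log2 fold change 1.72, SE 0.22, adjusted p = 0.00125) and control cells (log2 fold change 2.45, SE 0.22, adjusted p = 7.51e-05). The rise at 5 dpi was kept in Olig2 cells (log2 fold change 1.63, SE 0.22, adjusted p = 0.000382) and control cells (log2 fold change 1.27, SE 0.22, adjusted p = 0.00302). In Olig2 cells Ldhb had 5666 and 6912 normalised counts in the uninjured pair, 3168 and 3269 in the 1 dpi pair and 3558 and 4041 in the 5 dpi pair. Control cells had 5854 and 5756 normalised counts in the uninjured pair, 2539 and 1820.4 in the 1 dpi pair and 3165 and 3879 in the 5 dpi pair. Every injured library lies below the 4 uninjured ones. At 1 dpi Ldhb fell in Olig2 cells (log2 fold change -0.96, SE 0.19, adjusted p = 0.0127) and, by a kept call, in control cells (log2 fold change -1.43, SE 0.19, adjusted p = 0.000504). At 5 dpi the log2 fold change was -0.72 (adjusted p = 0.0144) in Olig2 and -0.73 (adjusted p = 0.0189) in control cells. The Ldhb call at 1 dpi in Olig2 cells was lost without either Olig2 1 dpi library (adjusted p up to 0.0608). The Ldhb call at 5 dpi in Olig2 cells was lost without Olig2 uninjured library 2 or Olig2 5 dpi library 1 (adjusted p up to 0.0902). The Ldhb call at 5 dpi in control cells was lost without either control uninjured library or control 5 dpi library 1, and with the control pair as 1 library (adjusted p up to 0.114).

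The ratio of Ldha to Ldhb normalised counts was 0.521 and 0.324 in the uninjured, 3.03 and 2.29 in the 1 dpi and 1.95 and 2.24 in the 5 dpi Olig2 pair. In control cells it was 0.351 and 0.343 in the uninjured, 3.89 and 6.77 in the 1 dpi and 1.79 and 1.07 in the 5 dpi pair. It was below 1 in the 4 uninjured libraries and above 1 in the 8 injured ones. The size of the ratio depends on transcript length, so its change between libraries is what can be read. Ldha was lower at 5 than at 1 dpi in control cells, -1.18 (adjusted p = 0.015), with -0.10 (adjusted p = 0.841) in Olig2 cells. The Ldha call at 5 against 1 dpi in control cells was lost without control 1 dpi library 2 or control 5 dpi library 2 (adjusted p up to 0.105). Between genotypes neither subunit passed at any time. At 5 dpi the log2 fold change was 0.71 (adjusted p = 0.0769) for Ldha and 0.11 (adjusted p = 0.77) for Ldhb.

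**Figure D3:**
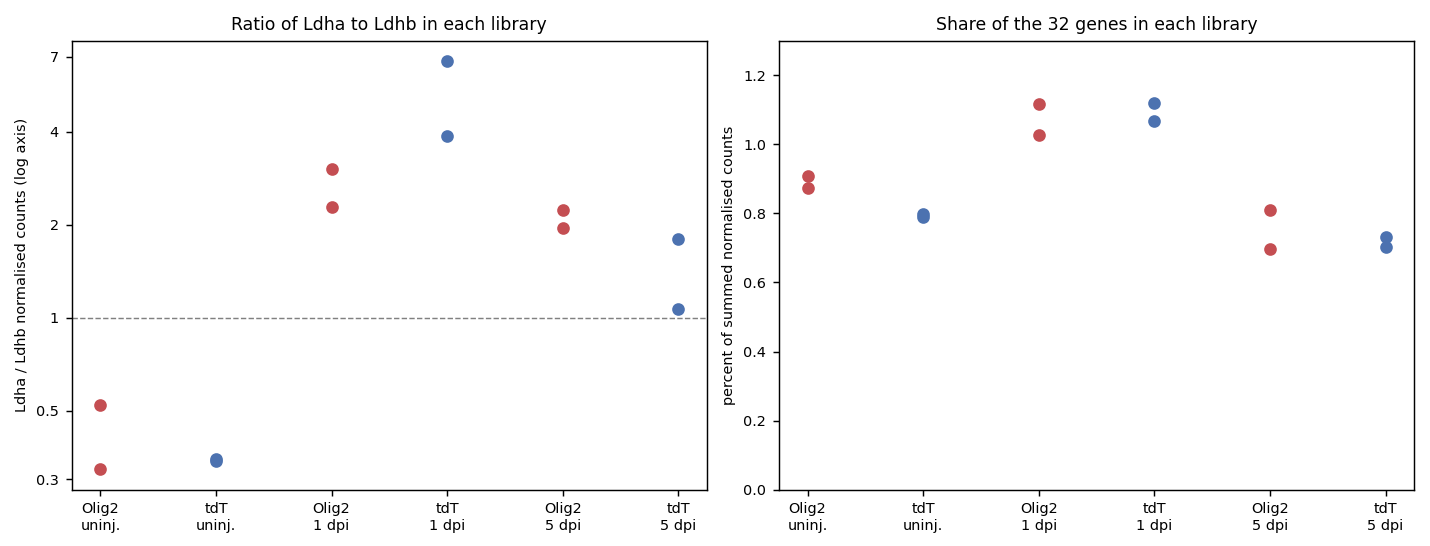
Left, the ratio of Ldha to Ldhb normalised counts in each library on a log axis, with a dashed line at 1; right, the share of the 32 genes in the summed normalised counts of each library, in percent. Uninjured, 1 dpi and 5 dpi run from left to right with Olig2 cells (red) left of control cells (blue); the 4 uninjured libraries lie below a ratio of 1 and the 8 injured ones above it, and the share is highest at 1 dpi.

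Of the pyruvate dehydrogenase kinases, Pdk1 and Pdk2 fell, and Pdk3 and Pdk4 were called nowhere. In Olig2 cells Pdk2 had 1800.3 and 1238 normalised counts in the uninjured pair, 604 and 751 in the 1 dpi pair and 409 and 438 in the 5 dpi pair. Among control libraries it had 1316 and 1309 normalised counts in the uninjured pair, 442 and 438 in the 1 dpi pair and 432 and 676 in the 5 dpi pair. The 4 uninjured libraries lie above the 8 injured ones. At 1 dpi Pdk2 had a log2 fold change of -1.15 (adjusted p = 0.0325) in Olig2 cells and a kept one of -1.57 (adjusted p = 0.00263) in control cells. At 5 dpi it was -1.82 (adjusted p = 0.000802) in Olig2 cells, a kept call, and -1.28 (adjusted p = 0.00897) in control cells. The Pdk2 call at 1 dpi in Olig2 cells was lost without either control uninjured library, Olig2 uninjured library 1, either Olig2 1 dpi library or either Olig2 5 dpi library, and with the control pair as 1 library (adjusted p up to 0.135). The Pdk2 call at 5 dpi in control cells was lost without either control uninjured library or control 5 dpi library 1, and with the control pair as 1 library (adjusted p up to 0.0739). Pdk1, a known target of hypoxia-inducible factor, averaged 309 ± 9.76 normalised counts in Olig2 cells at 5 dpi and 999.8 ± 19.1 in uninjured Olig2 cells (SD, n = 2 each). Its fall at 5 dpi was kept in Olig2 cells, -1.69 (adjusted p = 0.00799), and was -1.68 (adjusted p = 0.012) in control cells. The Pdk1 call at 5 dpi in control cells was lost without either control uninjured library or control 5 dpi library 2, and with the control pair as 1 library (adjusted p up to 0.0854). Pdk3 ranged over 138 to 579.6 and Pdk4 over 74.9 to 273 normalised counts. In Olig2 cells at 5 dpi their log2 fold changes were 0.85 (adjusted p = 0.279) for Pdk3 and -0.13 (adjusted p = 0.904) for Pdk4. Pdha1, the catalytic subunit that these kinases phosphorylate, was lower at 5 than at 1 dpi in Olig2 cells, -0.60 (adjusted p = 0.0276). The Pdha1 call at 5 against 1 dpi in Olig2 cells was lost without either control uninjured library, either Olig2 1 dpi library or either Olig2 5 dpi library, and with the control pair as 1 library (adjusted p up to 0.151).

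In the pentose phosphate pathway, transaldolase (Taldo1), of the non-oxidative branch, rose in all 4 comparisons with uninjured cells. In Olig2 cells Taldo1 had 1589.9 and 1385 normalised counts in the uninjured pair, 2627 and 2512 in the 1 dpi pair and 2854 and 2708 in the 5 dpi pair. In control cells Taldo1 had 1168 and 1309.9 normalised counts in the uninjured pair, 2331 and 2111 in the 1 dpi pair and 2357 and 1642 in the 5 dpi pair. All 8 injured libraries lie above the 4 uninjured ones. The summed oligodendrocyte markers, given above, were lower at 5 dpi than uninjured in both libraries of each genotype. At 1 dpi they lay above their uninjured pair in control library 1 (0.152%) and Olig2 library 2 (0.0417%). Their part in the Taldo1 levels was not tested. At 1 dpi the log2 fold change of Taldo1 was 0.79 (adjusted p = 0.0326) in Olig2 and 0.84 (adjusted p = 0.00969) in control cells. At 5 dpi it was kept in Olig2 cells, 0.91 (adjusted p = 0.0053), and was 0.67 (adjusted p = 0.0306) in control cells. The Taldo1 call at 1 dpi in Olig2 cells was lost without either control uninjured library, either Olig2 uninjured library, either Olig2 1 dpi library or either Olig2 5 dpi library, and with the control pair as 1 library (adjusted p up to 0.115). The Taldo1 call at 1 dpi in control cells was lost without control uninjured library 1, and with the control pair as 1 library (adjusted p up to 0.0906). The Taldo1 call at 5 dpi in control cells was lost without either control uninjured library or control 5 dpi library 1, and with the control pair as 1 library (adjusted p up to 0.199). Glucose 6-phosphate dehydrogenase (G6pdx), the entry enzyme of the oxidative branch, averaged 1172 ± 230.2 normalised counts in Olig2 cells at 5 dpi and 506.5 ± 48.9 in uninjured Olig2 cells (SD, n = 2 each). It rose in Olig2 cells at 5 dpi (log2 fold change 1.20, SE 0.36, adjusted p = 0.0307), also against 1 dpi, 1.44 (adjusted p = 0.0273). The G6pdx call at 5 dpi in Olig2 cells was lost without either control uninjured library, either Olig2 uninjured library or either Olig2 5 dpi library, and with the control pair as 1 library (adjusted p up to 0.176). The G6pdx call at 5 against 1 dpi in Olig2 cells was lost without either control uninjured library, either Olig2 1 dpi library or either Olig2 5 dpi library, and with the control pair as 1 library (adjusted p up to 0.18). Transketolase (Tkt) rose in control cells at 1 dpi, 0.74 (adjusted p = 0.0397). The Tkt call at 1 dpi in control cells was lost without either control uninjured library, either control 1 dpi library, either Olig2 1 dpi library or either Olig2 5 dpi library, and with the control pair as 1 library (adjusted p up to 0.2). Phosphogluconate dehydrogenase (Pgd) ranged over 463 to 1318 normalised counts and was called nowhere.

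Between genotypes, 5 of the 32 genes differed uninjured, 1 at 1 dpi and 3 at 5 dpi. Uninjured, 3 were higher in Olig2 than in control cells (Pfkp, Pfkfb4 and Gapdh) and 2 lower (Hk2 and Pfkfb3), beside 7.79% of all genes (4.72% higher and 3.07% lower). The Pfkp difference was kept (log2 fold change 6.62, SE 0.67, adjusted p = 0.000692), and with the control pair as 1 library it was the single one of the 5 called. For Gapdh the log2 fold change was 0.48 (adjusted p = 0.0455). The Gapdh call between uninjured genotypes was lost without either control uninjured library, either control 5 dpi library, either Olig2 uninjured library or either Olig2 1 dpi library, and with the control pair as 1 library; it also ended with quantile normalization (adjusted p up to 0.33). At 1 dpi Slc2a1 alone differed, higher in Olig2 cells, beside 1.84% of all genes (1.29% and 0.55%). At 5 dpi Pkm was higher and Aldoc and Slc16a1 lower in Olig2 cells, beside 9.23% (3.36% and 5.88%). Pkm averaged 11129.9 ± 2071 normalised counts in Olig2 and 6639 ± 1211 in control cells at 5 dpi (SD, n = 2 each; log2 fold change 0.74, SE 0.15, adjusted p = 0.0154). The Pkm call between genotypes at 5 dpi was lost without control 5 dpi library 2 or Olig2 5 dpi library 2 (adjusted p up to 0.129). The 29 genes not called at 5 dpi had log2 fold changes from -1.61 to 1.23.

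Whether the response to injury differed between genotypes was tested by the interaction, the change in Olig2 cells minus that in control cells. At 1 dpi, 1 of 32 genes passed, Pfkp, by a kept call (log2 difference -6.55, SE 0.95, adjusted p = 0.0101), beside 2.77% of all genes (0.923% above 0 and 1.85% below). At 5 dpi 3 passed, beside 7.28% (2.64% and 4.64%). They were Pfkp, by a kept call (log2 difference -6.01, SE 0.95, adjusted p = 0.00719), Hk2 (log2 difference 5.36, SE 0.94, adjusted p = 0.0105) and Pfkfb4 (log2 difference -4.33, SE 1.00, adjusted p = 0.0305). The Hk2 call of the 5 dpi interaction was lost without either control uninjured library, and with the control pair as 1 library (adjusted p up to 0.0669). The Pfkfb4 call of the 5 dpi interaction was lost without either control uninjured library, control 5 dpi library 1, Olig2 uninjured library 1 or either Olig2 5 dpi library, and with the control pair as 1 library (adjusted p up to 0.125). These 3 genes differed between genotypes when uninjured, and no difference between their injured levels passed. The comparisons of a genotype share its uninjured libraries, so values at 1 and 5 dpi are not independent.

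Of 61 further genes of these pathways, 53 passed the filter. In Olig2 cells 1 higher and 1 lower were called at 1 dpi, beside 8.09% of all genes (5.93% higher and 2.16% lower). At 5 dpi 12 higher and 9 lower were called in them, beside 31.2% (17.2% and 14%). In control cells 11 higher and 4 lower were called at 1 dpi, beside 27.4% (15.4% and 12%). At 5 dpi 14 higher and 5 lower were called in control cells, beside 23% (13.8% and 9.21%). Of the 84 calls of this list over the 11 comparisons, 41 were kept and 31 were lost with the uninjured control pair as 1 library. H6pd, hexose 6-phosphate dehydrogenase of the endoplasmic reticulum, had 18.7 and 92.9 normalised counts in Olig2 cells at 1 dpi, against 0 and 0.9 uninjured. It rose at 1 dpi, by 4.96 (adjusted p = 0.0186) on the log2(value + 1) scale, and, by a kept call, at 5 dpi, 5.54 (adjusted p = 0.00281). In control cells H6pd had 78.8 and 22.8 normalised counts at 1 dpi and was listed at 0 in the uninjured pair. The H6pd call at 1 dpi in Olig2 cells was lost without Olig2 uninjured library 1 or Olig2 1 dpi library 2, or with a pseudocount of 8 (adjusted p up to 0.0994). Eno4, an enolase known from sperm, fell in Olig2 cells at 1 dpi, -1.16 (adjusted p = 0.0275). The Eno4 call at 1 dpi in Olig2 cells was lost without either control uninjured library, either Olig2 uninjured library or either Olig2 1 dpi library, and with the control pair as 1 library (adjusted p up to 0.134). Eno4 was also called lower in Olig2 cells at 5 dpi, -3.59 (adjusted p = 1.08e-05). In control cells it was called lower at 1 dpi, -1.40 (adjusted p = 0.00417), and at 5 dpi, -1.59 (adjusted p = 0.00271). Pklr, the pyruvate kinase of liver and red blood cells, led the genes called in Olig2 cells at 5 dpi and was lower by a kept call, -5.66 (adjusted p = 0.00493). The ADP-dependent glucokinase Adpgk rose in control cells at 1 dpi by a kept call, 5.54 (adjusted p = 2.3e-05), with 889 and 964 normalised counts against 15.7 and 22.7 uninjured. In Olig2 cells Adpgk had 321 and 450.5 normalised counts uninjured and 490 and 290 at 1 dpi, and was not called. Uninjured, it was higher in Olig2 than in control cells, 4.26 (adjusted p = 0.00036). Its interaction at 1 dpi was -5.55 (adjusted p = 0.0021). At 5 against 1 dpi 3 higher and 6 lower were called in Olig2 cells, beside 13.9%, and 1 lower in control cells, beside 5.85%. Between genotypes 5 were called uninjured, all higher in Olig2 cells, beside 7.79%, and 1 higher and 3 lower at 5 dpi, beside 9.23%. At 5 dpi Pck1 was lower in Olig2 cells, -6.73 (adjusted p = 0.0131), and Fbp2 was higher, 4.96 (adjusted p = 0.0147). Glycogen phosphorylase of brain type (Pygb) was lower in Olig2 cells at 5 dpi by a kept call, -2.20 (adjusted p = 0.000578), and Eno4 was lower too, -1.73 (adjusted p = 0.00363). At 1 dpi limma called 0 of 53 between genotypes, beside 1.84%, with 7 at an unadjusted p under 0.05. For the interaction 3 passed at 1 dpi, beside 2.77%, and 5 at 5 dpi, beside 7.28%, all below 0.

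Of 27 regulators and hypoxia targets, 25 passed the filter. At 1 dpi 2 higher and 1 lower were called in Olig2 cells, beside 8.09% of all genes (5.93% higher and 2.16% lower). In control cells 3 higher and 3 lower were called, beside 27.4% (15.4% and 12%). Those called at 5 dpi were 2 higher and 8 lower in Olig2 cells, beside 31.2% (17.2% and 14%). In control cells they were 3 higher and 3 lower, beside 23% (13.8% and 9.21%). Of the 34 calls of this list, 10 were kept and 18 were lost with the uninjured control pair as 1 library. Myc, a transcription factor that activates glycolytic genes, rose in Olig2 cells at 1 dpi, 5.85 (adjusted p = 0.0113), and, by a kept call, at 5 dpi, 6.31 (adjusted p = 0.00189). In control cells its rise was kept at 1 dpi, 9.30 (adjusted p = 0.000331), and at 5 dpi, 8.86 (adjusted p = 0.00058), with 2.1 and 0 normalised counts in the uninjured control pair. The Myc call at 1 dpi in Olig2 cells was lost without either Olig2 1 dpi library (adjusted p up to 0.0617). Ndrg1, a hypoxia target, rose in Olig2 cells at 1 dpi, 2.72 (adjusted p = 0.0291), and, by a kept call, at 5 dpi, 3.82 (adjusted p = 0.00144). It was lower in uninjured Olig2 than uninjured control cells, also by a kept call, -5.23 (adjusted p = 0.00165). The Ndrg1 call at 1 dpi in Olig2 cells was lost without either control uninjured library, Olig2 uninjured library 2 or either Olig2 1 dpi library, and with the control pair as 1 library (adjusted p up to 0.145). The 8 called lower in Olig2 cells at 5 dpi were Ankrd37, Egln3, Car9, Epas1, Ppargc1a, P4ha2, Bhlhe40 and Bnip3, most of which are known hypoxia targets. Of these, Ankrd37 had a log2 fold change of -4.99 (adjusted p = 0.0326) and Egln3 one of -4.37 (adjusted p = 0.0321). The Ankrd37 call at 5 dpi in Olig2 cells was lost without either Olig2 uninjured library or either Olig2 5 dpi library (adjusted p up to 0.12). The Egln3 call at 5 dpi in Olig2 cells was lost without either Olig2 uninjured library or Olig2 5 dpi library 2 (adjusted p up to 0.11). In control cells at 5 dpi Ankrd37, Ppargc1a and Bnip3 were called lower, and at 1 dpi Ppargc1a, Vhl and Bnip3. P4ha2 was called higher in control cells at 1 dpi, 2.01 (adjusted p = 0.0313). Vegfa, a hypoxia-responsive growth factor gene, had 77.7 and 153 normalised counts in control cells at 1 dpi and was listed at 0 in the uninjured control pair. Ppargc1a, a coactivator of mitochondrial genes, fell at 1 dpi in Olig2 cells, -1.89 (adjusted p = 0.015), and, by a kept call, in control cells, -2.67 (adjusted p = 0.000787). The Ppargc1a call at 1 dpi in Olig2 cells was lost without either Olig2 1 dpi library (adjusted p up to 0.0689). At 5 against 1 dpi limma called 0 of 25 in Olig2 cells, beside 13.9%, with 5 at an unadjusted p under 0.05. In control cells 1 was called, beside 5.85%, namely Hif1a, lower at 5 dpi. Between genotypes 2 higher and 1 lower were called uninjured, beside 7.79%. At 1 dpi limma called 0 of 25 between genotypes, beside 1.84%, with 2 at an unadjusted p under 0.05. At 5 dpi 2 were called, Egln3 and Epas1 (HIF-2 alpha), both lower in Olig2 cells, beside 9.23%. The Egln3 call between genotypes at 5 dpi was lost without either control uninjured library, either control 1 dpi library, either control 5 dpi library, Olig2 uninjured library 1, either Olig2 1 dpi library or Olig2 5 dpi library 2, and with the control pair as 1 library (adjusted p up to 0.184). The Epas1 call between genotypes at 5 dpi was lost without either control uninjured library, either control 1 dpi library, either control 5 dpi library, either Olig2 1 dpi library or either Olig2 5 dpi library, and with the control pair as 1 library (adjusted p up to 0.195). Limma called 0 of 25 for the interaction at 1 dpi, beside 2.77%, with 5 at an unadjusted p under 0.05. It called 3 at 5 dpi, 1 above 0 and 2 below, beside 7.28%.

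Of 17 citric acid cycle genes, all 17 passed the filter. At 1 dpi 1 higher and 1 lower were called in Olig2 cells, beside 8.09% of all genes (5.93% higher and 2.16% lower). In control cells 4 were called, all higher, beside 27.4% (15.4% and 12%). Those called at 5 dpi were 3 higher and 4 lower in Olig2 cells, beside 31.2% (17.2% and 14%). In control cells they were 1 higher and 6 lower, beside 23% (13.8% and 9.21%). Of the 34 calls of this list, 8 were kept and 19 were lost with the uninjured control pair as 1 library. Dlst, a subunit of the 2-oxoglutarate dehydrogenase complex, rose in Olig2 cells by kept calls at 1 dpi, 1.11 (adjusted p = 0.00568), and at 5 dpi, 1.16 (adjusted p = 0.00106). Sucla2, a subunit of succinyl-CoA ligase, fell in Olig2 cells at 1 dpi, -0.76 (adjusted p = 0.0164). The Sucla2 call at 1 dpi in Olig2 cells was lost without Olig2 uninjured library 1 or Olig2 1 dpi library 2 (adjusted p up to 0.0837). Fumarate hydratase (Fh1) led the 4 genes called in control cells at 1 dpi, by a kept call, 1.43 (adjusted p = 0.00114). Idh3a, a subunit of NAD-dependent isocitrate dehydrogenase, fell at 5 dpi by kept calls in Olig2 cells, -1.20 (adjusted p = 0.00141), and control cells, -1.26 (adjusted p = 0.00198). At 5 dpi 4 of the 17, Fh1, Cs, Sdhd and Mdh2, were higher in Olig2 than in control cells, beside 9.23%, and none of these 4 calls was kept. The largest was that of Fh1, 1.18 (adjusted p = 0.00812). The Fh1 call between genotypes at 5 dpi was lost without control 5 dpi library 2 or Olig2 5 dpi library 2 (adjusted p up to 0.0741). Between genotypes 1 was higher uninjured, beside 7.79% of all genes. At 1 dpi limma called 0 of 17 between genotypes, beside 1.84%, with 2 at an unadjusted p under 0.05. For the interaction 1 passed at 1 dpi, below 0, beside 2.77%, and 2 at 5 dpi, above 0, beside 7.28%. At 5 against 1 dpi 3 were lower in Olig2 cells, beside 13.9% (7.93% lower), and 3 in control cells, beside 5.85% (3.11% lower).

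In the single-cell RNA data, 3500 cells stand in 1 matrix, and the authors' cell table keeps 3285 of them. The cells carry 6 library codes (017, 018, 019, 020, 072 and 073). These could not be tied to the 6 labelled samples, Olig2 and control cells uninjured and at 2 and 4 wpi (taken to mean weeks), so no condition is given to a code and no test was run. Between codes 7 barcodes were shared. Levels are in CPM, counts scaled to the summed UMIs of the cells, with exact Poisson intervals that cover counting error only. Over the 6 codes Slc2a1 had 336 to 512 CPM, Gapdh 1013 to 1553 and Pkm 566 to 762. Slc16a3 had 14 UMIs in all kept cells. Taldo1 had 126 to 146 CPM in 4 codes, but 333 CPM (95% interval 308 to 359) in code 020 and 543 CPM (95% interval 518 to 569.7) in code 073. Ldha over Ldhb was 0.637 in code 073 and 0.325 to 0.382 in the other 5 codes.

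Codes 020 and 073 differed from the other 4 in makeup. Of 337 kept cells of code 020, 51 were ependymal-like, and of 360 of code 073, 27. In the other 4 codes at most 3 cells of a code were unnamed. Of 14 clusters, 10 (2660 cells) were ependymal-like by their markers, 1 (126 cells) was oligodendrocyte-like and 1 (59 cells) oligodendrocyte progenitor-like. The ependymal-like clusters include 1 of 58 cells led by cycling genes such as Top2a, Birc5 and Mki67, with 7 of 7 ependymal markers. It holds 14 of 27 ependymal-like cells in code 073 and 8 of 51 in code 020, but 8 of 991 in code 072. A cluster led by Ppp1r1b and Aldh1a1 holds 33 ependymal-like cells of code 020 and 278 of code 019, but 1 of code 072. The class is thus made of different clusters in different codes. The other 440 cells fell in 2 clusters, led by Ctss, Lyz2 and Gpnmb and by Pla2g7, Bglap and Col1a1. They held 7 of 7 ependymal markers but genes of other cell types among their leading ones, and stay unnamed. Taldo1 had 1156 CPM (95% interval 1101 to 1213) in oligodendrocyte-like, 323 CPM (95% interval 271 to 382) in progenitor-like and 141 CPM (95% interval 135 to 147) in ependymal-like cells. Within code 020 it had 1174 CPM (95% interval 1055 to 1302) in oligodendrocyte-like and 185 CPM (95% interval 139.7 to 239) in ependymal-like cells. Within code 073 it had 1151 CPM (95% interval 1089 to 1216) in oligodendrocyte-like and 261 CPM (95% interval 198 to 337) in ependymal-like cells. In the ependymal-like cells of the other 4 codes Taldo1 had 126 to 146 CPM. Without the cycling cluster, an alternative chosen after seeing the data, Taldo1 had 157 CPM (95% interval 108 to 219.9) in the 43 ependymal-like cells left of code 020. In the 13 left of code 073 it had 142 CPM (95% interval 77.4 to 238). These intervals are wide, and the part of the cycling cluster in the Taldo1 levels was not tested.

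Slc2a1 was highest in the unnamed cells, with 575 CPM (95% interval 548 to 603). It had 59.7 CPM (95% interval 47.7 to 73.9) in oligodendrocyte-like, 16.5 CPM (95% interval 6.63 to 34.0) in progenitor-like and 393 CPM (95% interval 383 to 402) in ependymal-like cells. Ldhb had 69.6 CPM in oligodendrocyte-like, 249.8 in progenitor-like and 457 in ependymal-like cells. Ldha over Ldhb was 2.71 in oligodendrocyte-like, 1.19 in progenitor-like and 0.355 in ependymal-like cells. In ependymal-like cells the ratio was 0.33 to 0.382 in 4 codes. It was 0.508 in code 020, from 60 and 118 UMIs, and 0.906 in code 073, from 58 and 64. Without the cycling cluster it was 0.349 in code 020, from 38 and 109 UMIs, and 0.784 in the 13 cells left of code 073, from 29 and 37. In the unnamed cells the ratio was 0.291. It was 0.221 in the 231 unnamed cells of code 020, from 137 and 620 UMIs. In the 205 of code 073 it was 0.347, from 268 and 773. Gapdh had 571 CPM in oligodendrocyte-like, 1318 in ependymal-like and 1504 in unnamed cells. Pkm had 327 CPM in oligodendrocyte-like and 713 in ependymal-like cells. Some genes of low level were higher in the oligodendrocyte lineage. Pfkp had 15.5 CPM in oligodendrocyte-like, 35.3 in progenitor-like and 6.66 in ependymal-like cells. G6pdx had 25.3, 37.7 and 6.18 CPM in the same order, and Pdk3 54.8, 35.3 and 10.4. These classes outside the ependymal ones come from 2 libraries, with no replicate test, and free RNA in droplets was not removed.

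**Figure D4:**
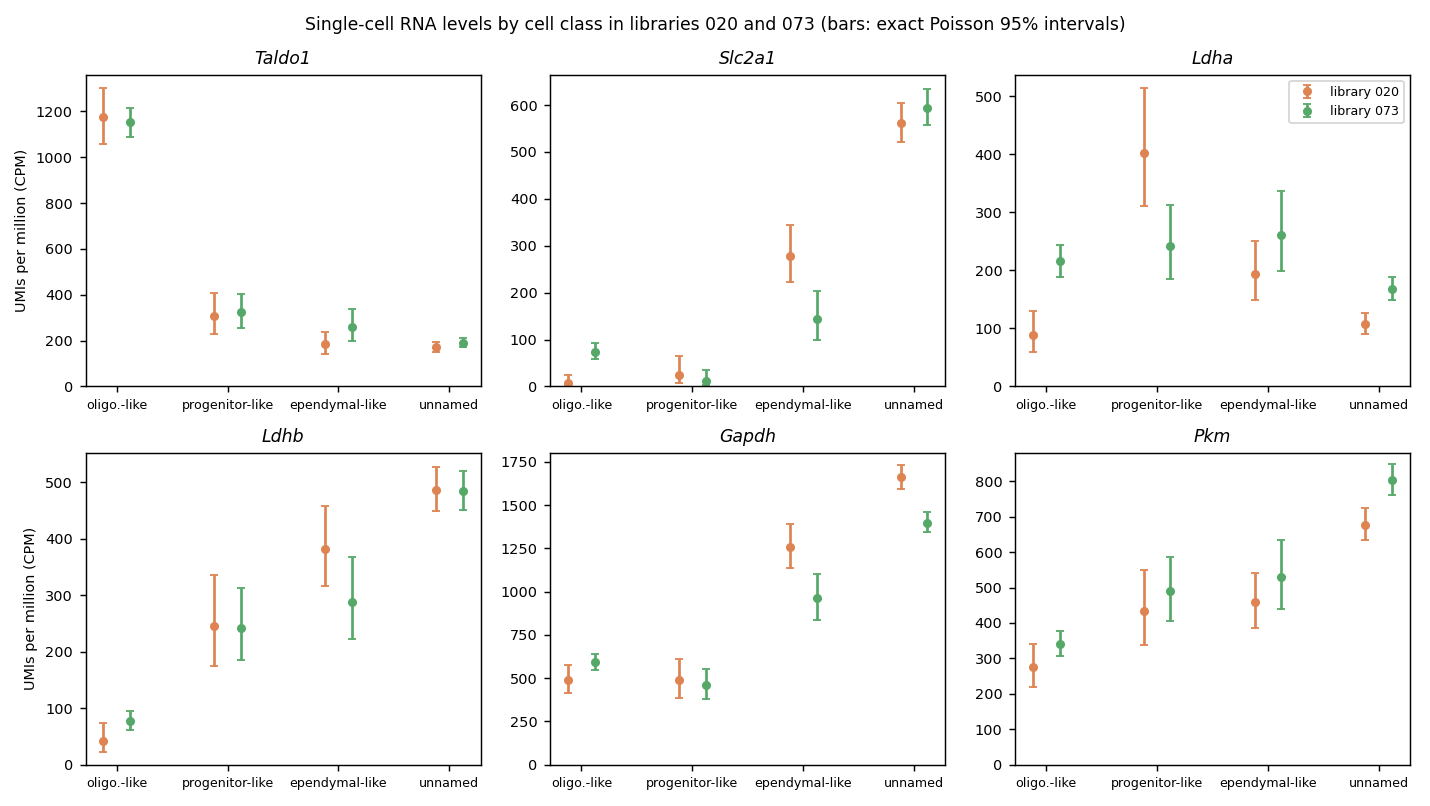
CPM (counts scaled to summed UMIs) of 6 genes in 4 cell classes of library codes 020 (orange) and 073 (green), with exact Poisson 95% intervals that cover counting error only. Taldo1 is far higher in oligodendrocyte-like cells of both codes than in the other classes, while Slc2a1, Ldhb and Gapdh are highest in the unnamed and ependymal-like cells.

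Chromatin access was read in 1 single-cell ATAC sample of 1084 non-neuronal cells from uninjured cord. The authors' 8 classes are EP1 to EP3, ACNT1 and ACNT2, OPC, VEC and PER, names the labels do not spell out. Cut sites in the authors' peaks within 1 kb of a listed promoter were summed per class and given as CPM. Of the 32 genes 31 had such a peak, all but Slc16a3. Slc2a1 had 236 (95% interval 222 to 252) CPM in EP1, 225 (95% interval 218 to 233) in EP2 and 268 (95% interval 255 to 282) in EP3. In VEC, where the interval overlaps those of EP1 to EP3, it had 223 (95% interval 182 to 271). Slc2a1 had 112 in PER, 175 in ACNT1, 145 in ACNT2 and 77.9 (95% interval 67.4 to 89.5) in OPC, the lowest class. Aldoc had 59.4, 67.9 and 62.4 CPM in EP1 to EP3, against 301 (95% interval 271 to 334) in ACNT1 and 215 (95% interval 196 to 235) in ACNT2. Pfkp had 24.8, 15.2 and 21.5 CPM in EP1 to EP3, from 102, 232 and 118 cut sites. It had 54.1 in ACNT1, 55.4 in ACNT2, 45.2 in OPC, 39.4 in VEC and 79.6 (95% interval 62.6 to 99.8) in PER.

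Ldha had 38.3, 38.1 and 37.1 CPM in EP1 to EP3, against 49.2 in OPC and 109.5 (95% interval 81.3 to 144) in VEC. Ldhb had 45.1, 36.4 and 48.0 in EP1 to EP3, against 71.0 in ACNT1 and 74.0 in ACNT2. Taldo1 had 19.4, 28.9 and 38.5 in EP1 to EP3, against 48.8 in OPC. Tkt and Pdk2 were highest in ACNT1, with 127 and 145 CPM. Pdk4 was lowest in OPC, with 15.7, against 108, 65.0 and 96.0 in EP1 to EP3. A peak may serve a neighbouring gene too, and the sample has no replicate. The windows planned at first, 2 kb around the ends of the gene, held a peak for 29 genes and missed the main Ldha start. In those windows Taldo1 had 19.9, 30.8 and 40.9 CPM in EP1 to EP3. It had 28.7 in ACNT1, 42.7 in ACNT2, 53.1 in OPC, 54.8 in VEC and 53.1 in PER, so OPC did not stand apart.

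**Figure D5:**
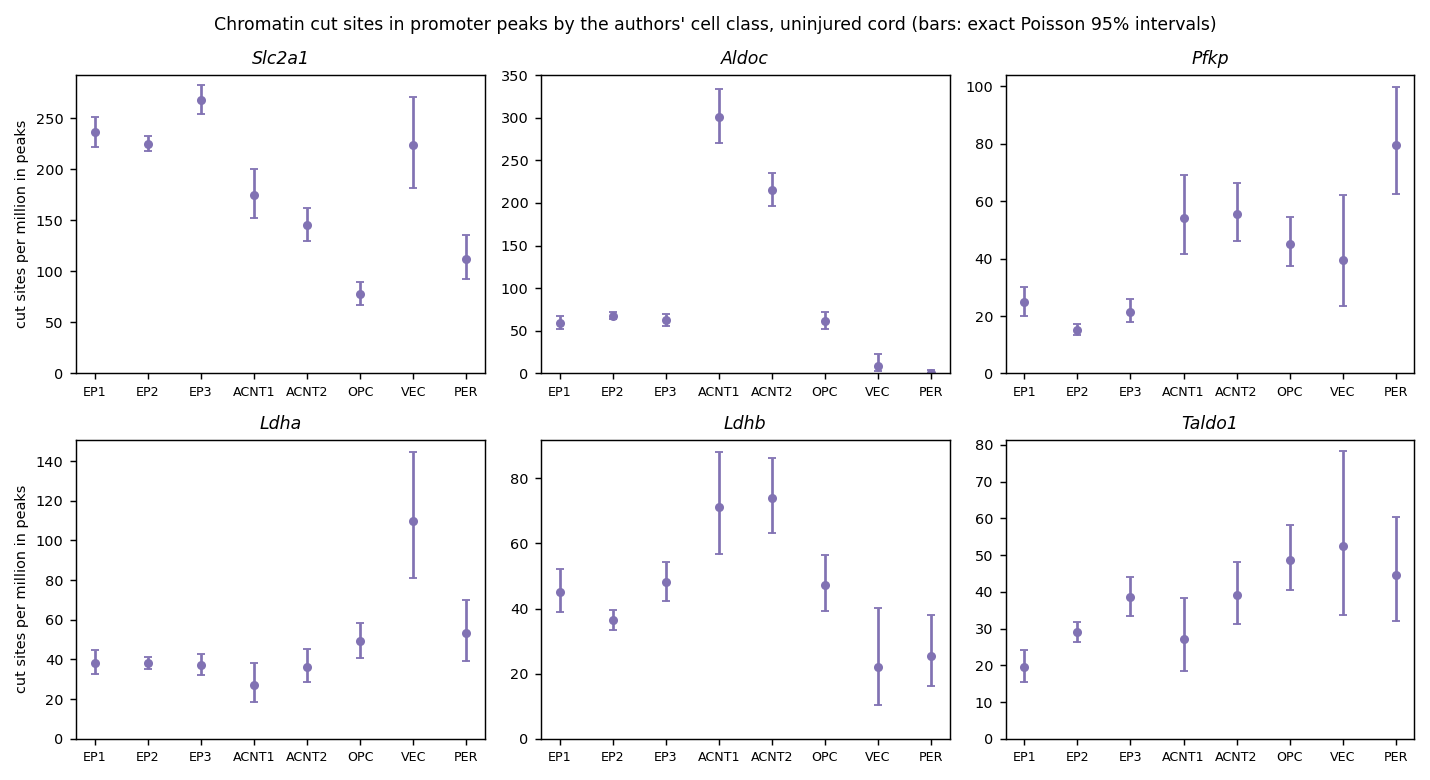
Cut sites, as CPM, in peaks within 1 kb of a RefSeq promoter of 6 genes, by the authors' class, in 1 sample of uninjured cord, with exact Poisson 95% intervals that cover counting error only. Slc2a1 is higher in EP1 to EP3 and VEC than in OPC, and Aldoc is highest in ACNT1 and ACNT2.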

How the data were processed

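Bulk RNA values were deposited as normalised counts (a signal with no stated scaling), which the authors rounded to 1 decimal; the program that counted or scaled them is not given in the sources used here, and the submitters' processing notes name mm10, Bowtie2 and SAMtools for the series. The library sums of 12601290 to 13878102 are those of scaled values, so the depth is unknown, and no step of whole reads was found in the low values. The 6 group means of 12 libraries were fitted together with limma 3.58.1 (R 4.3.3) on log2(value + 1), with an empirical Bayes trend, after a filter of at least 10 in at least 2 libraries, so a fold change understates that of low genes. Benjamini-Hochberg adjustment ran over 15811 genes with a threshold of 0.05. The method was tested on simulated data. Single-cell RNA counts are UMI counts and single-cell ATAC counts are cut sites, as the authors deposited them, and the processing notes name Cell Ranger and Cell Ranger ATAC. Kept cells held 716 to 52590 UMIs (median 5722) and ATAC cells 1931 to 181707 cut sites in peaks. Clustering used scanpy 1.11.5: 2000 variable genes were reduced to 30 components, 15 neighbours were joined and Leiden was run at resolution 1, and a cluster was named where at least 3 markers of a list were found in at least 25% of its cells; it stayed unnamed where markers of another list, cycling aside, outnumbered them among the 10 leading genes. No doublet caller was run. Intervals are exact Poisson at 95%.

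The 32 genes, the other lists, the markers and the comparisons were chosen with earlier results of these data known. Every one of the 32 genes called in a comparison was to be named, with values for up to 12 by size of change and for paralogs. Values in each library were to be given for the 14 genes called in most comparisons. Of the other lists up to 4 called genes a comparison were to be named, largest change first. That order was not followed throughout. Larger changes such as that of Tigar in control cells at 1 dpi (log2 fold change 6.38) were passed over. Genes named out of that order were chosen after their values were seen. Promoters came from the RefSeq table of GRCm38.p6, and motifs were searched on both strands. Alternatives were a pseudocount of 8, no filter, median-of-ratios factors, quantile normalization, a replicate block, each library left out, the uninjured control pair as 1 library, other sets of single cells and other peak windows. Bulk ATAC data of 12 libraries were not used here.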

Additional observations from a re-analysis of the deposited data

Results flagged for a closer look

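The effect of injury differed between the genotypes by the interaction test of limma for 3 genes. Pfkp had an interaction of -6.55 (log2) at 1 dpi and -6.01 at 5 dpi, Hk2 of 5.36 at 5 dpi, and Pfkfb4 of -4.33 at 5 dpi, each the change in Olig2 cells minus that in control cells. The uninjured Olig2 pair had 430.3 and 305 normalised counts of Pfkp, against 4.9 and 1.3 in the uninjured control pair. Hk2 had 4.3 and 12.1 in the uninjured Olig2 and 156.5 and 133 in the uninjured control pair. Pfkfb4 had 242 and 111 in the uninjured Olig2 and 17.3 and 16.2 in the uninjured control pair. With the nearly identical uninjured control pair as 1 library, the Pfkp terms were kept and the Hk2 and Pfkfb4 terms at 5 dpi were not.

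The 215 cells that the authors' cell table leaves out, 176 of them from code 020, showed 5 of the 32 genes above every code of kept cells, with intervals that did not meet. The share of all genes that lay above in this way was not computed, so the count cannot be read as particular to these pathways. Hk2 had 144 CPM (95% interval 130.3 to 159) in the cells left out, against at most 5.65 CPM in any code. Slc16a3 had 34.1 CPM (95% interval 27.6 to 41.7) in the cells left out, against at most 2.83 CPM in any code. Pfkfb3 had 21.9 CPM (95% interval 16.8 to 28.2) in the cells left out, against at most 2.83 CPM in any code. Gpi1 had 194 CPM (95% interval 178 to 211) in the cells left out, against at most 157 CPM in any code. Pgd had 98.5 CPM (95% interval 87.2 to 111) in the cells left out, against at most 30.1 CPM in any code. In these cells 4 of 5 infiltrating myeloid markers and 4 of 6 microglia markers were found in at least 25% of cells. So were 3 of 7 ependymal and 2 of 5 fibroblast markers. The infiltrating myeloid markers held 2.62% of their UMIs and the fibroblast markers 3.36%, against 0.0216% and 0.0154% in kept cells.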

How the results depend on the processing

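No fold change of a called gene, of the 32 or of the other lists, reversed in any of the 18 alternatives, and 27 of 81 calls of the 32 genes passed in all. For the other lists the alternatives were added after seeing the data, as was leaving out the cycling cluster, which moved 1 of 6 Taldo1 levels of ependymal-like cells beyond its interval. Counts of the 32 genes called moved by over 1.5 times with the uninjured control pair as 1 library, to 5 in Olig2 and 7 in control cells at 1 dpi, 4 in control cells at 5 dpi, 5 in control cells at 5 against 1 dpi, 1 between uninjured genotypes and 1 for the interaction at 5 dpi. Quantile normalization gave 2 between genotypes at 1 dpi, and a pseudocount of 8 gave 2 for the interaction at 1 dpi. Leaving out 1 library gave 2 to 9 at 1 dpi and 8 to 17 at 5 dpi in Olig2 cells, 7 to 13 and 4 to 13 in control cells, 3 to 12 and 1 to 11 for 5 against 1 dpi in Olig2 and control cells, 1 to 5, 0 to 2 and 1 to 6 between genotypes uninjured, at 1 and at 5 dpi, and 1 to 3 and 1 to 4 for the interactions at 1 and 5 dpi. A group left with 1 library is assumed to vary like the others. The cause of these moves was not tested, beyond the fewer libraries. Replicate numbers did not pair the libraries: the 15 correlations of replicate differences between groups were -0.030 to 0.022, with 0 over 0.1. With the replicate block the counts were 8, 15, 11, 11, 9, 9, 4, 1, 3, 1 and 3 in the same order. Quantile normalization moved the median log2 fold change of all genes at 5 dpi to -0.03 in Olig2 and -0.08 in control cells, against 0.12 and 0.04. Of 192 single-cell RNA levels, 33 moved beyond their interval with all cells of the matrix and 47 with ependymal-like cells alone. Of 256 ATAC values, 15 moved with 1 kb around gene ends and 101 with peaks near promoters, which was chosen after seeing the data. With 2 libraries a group and unknown depth, genes with low values such as Slc16a3 and Eno2 could not be resolved.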
